A study of Homo sapiens with 12 samples.

Results

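The comparison described here is that of cells given both Wee1 inhibitor II and 17-AAG with cells given vehicle, on 5 of the 12 arrays of the study. The arrays were chosen by their labels, as the 3 arrays with both drugs and control replicates 1 and 3. Control replicate 2, whose title carries the submitters' note of weak signal, was left out. All 19775 genes with a usable probe set were tested, and the account below gives most weight to the 8754 genes with a geometric mean signal of at least 100 in control or with both drugs. SIK2 (100.2) and PCDHB8 (100.2) lay just inside that limit, and PRAG1 (99.995) and MCM9 (99.975) just outside it.

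The study asked how inhibition of Wee1 alters the response of cells to an Hsp90 inhibitor, in human cells labelled PC3, a cell line from a prostate cancer. Cells grown in DMEM with fetal bovine serum were plated at 10% confluency 1 day before treatment. The group with both drugs received 2.5 µM Wee1 inhibitor II and, 24 h later, 40 nM 17-AAG, and was harvested 48 h after that, so that the cells had been 72 h with the first drug. The control group received vehicle in place of the drugs, and the single-drug groups of 3 arrays each, used here only for comparison, received 2.5 µM Wee1 inhibitor II or 40 nM 17-AAG on the same schedule. RNA was measured on Affymetrix oligonucleotide arrays from 100 ng of total RNA per sample. Nothing in the labels says whether replicates were separate cultures, so p-values here reflect the variation among these samples alone, and that variation may be technical.

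Wee1 is a kinase that places an inhibitory phosphate on CDK1, the kinase that drives entry into mitosis, and so holds cells in G2 until DNA is replicated and repaired. Hsp90 is a chaperone that folds and stabilises many kinases and receptors, called its clients, and Wee1 and CDK1 are among them. 17-AAG, a derivative of geldanamycin, occupies the ATP pocket of Hsp90, which usually frees the transcription factor HSF1 to switch on heat shock genes. Stress at the ribosome or in the endoplasmic reticulum acts through another factor, ATF4, which switches on genes for making and importing amino acids. The mitochondrial pathway of apoptosis is set by the balance of BCL2 family proteins that protect mitochondria and BH3-only proteins that antagonise them.

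The arrays differed little in brightness, with median signals of 17.7 to 23.1 on the 11 arrays fitted. Control replicate 2, titled weak signal, had a median of 20.8 in the deposited values, within that range. Over all probe sets the 3 arrays with both drugs correlated with each other at r of 0.928 to 0.934, the control arrays with each other at 0.934, and the groups with each other at 0.913 to 0.916. The within-group SD of a gene had a median of 0.12 on the log2 scale for the brighter genes and 0.80 for the dimmer ones. The difference in log2 signal between the 3' and 5' probe sets of ACTB, a measure of RNA integrity and of labelling length, was 0.96 ± 0.05 (SD, n = 3) with both drugs and 0.69 ± 0.03 (SD, n = 2) in control, and that of GAPDH was -0.01 ± 0.02 and -0.06 ± 0.00. Its part in the results against control was not tested. With 17-AAG alone the ACTB difference was 0.96 ± 0.08 (SD, n = 3), equal to that with both drugs, and with Wee1 inhibitor II alone 0.68 ± 0.09 (SD, n = 3).

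The markers on the 11 fitted arrays went largely against the PC3 label. HOXB13 read 2.14 to 11.3 there, CTNNA1, a gene that PC3 lacks, 2559 to 5040, and the pigment cell gene MLANA 2865 to 9916. Which cells these arrays hold was not tested. Of 13 measured genes that mark prostate cells or PC3, 10 were under a signal of 100 on all 5 arrays, among them HOXB13, EPCAM and KRT8, and their summed signal was 1460 to 1534 in control and 1593 to 1723 with both drugs. The 4 genes deleted from PC3, among them CTNNA1 and STAT3, were all measured, CTNNA1, STAT3 and STAT5A above 100 on all 5 arrays and STAT5B on all but control replicate 1 (86.9), with a sum of 4016 to 4163 in control and 4037 to 4251 with both drugs. Genes of pigment cells, such as MLANA and PMEL, had a summed signal of 51493 to 53747 in control and 70471 to 71326 with both drugs. Of the epithelial genes 16 of 18, of the fibroblast markers 8 of 10 and of the blood and endothelial markers 9 of 9 were under 100 on all 5 arrays. The array left out, control replicate 2, had the opposite pattern, with 2087 for HOXB13, 1096 for EPCAM, 2.67 for MLANA and 1.57 for CTNNA1. The counts against control are given below without it and, where stated, with it.

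With both drugs 5539 of the 19775 genes changed against control, or 28.0%. Of these, 3306 rose (16.7% of all genes) and 2233 fell (11.3%), at an adjusted p under 0.05 in limma. Changes of single genes are given below as log2 fold changes ± SE of the fit, over 2 control arrays and 3 arrays with both drugs. Among the brighter genes 2452 rose and 2020 fell, 28% and 23.1% of the 8754. Rises of at least 2-fold numbered 723 among the brighter genes and falls 512; at 4-fold or more there were 95 and 92, and at 8-fold or more 11 and 9. On all 5539 called genes the control arrays and the arrays with both drugs did not overlap. The share of all genes without overlap is not given here, so this adds no support to the calls. With control replicate 2 included in the control group, 1130 genes rose and 726 fell.

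The balance between rises and falls depended on the scaling of the arrays. The median change over all genes was 0.11 on the log2 scale as deposited and -0.08 when each array was centred on its median, so that 59.7% of the called genes rose in the first case and 40.6% (1921 of 4729) in the second. A small shift shared by a whole gene group can therefore change sides, and this is stated below for groups whose median or balance of calls turns.

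**Figure D1:**
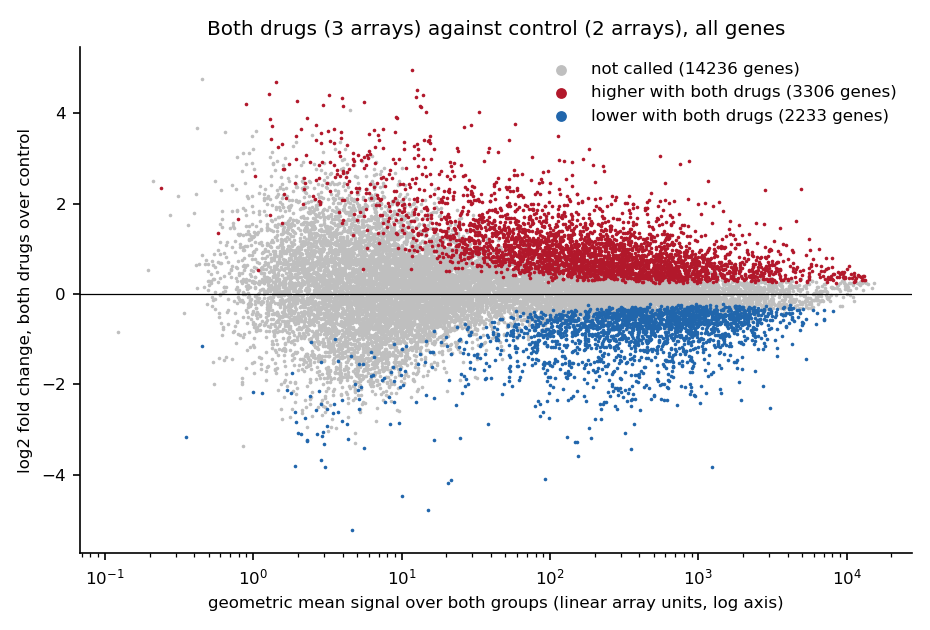
Change of each of the 19775 genes with both drugs against control (vertical axis, log2 fold change) against its mean signal (horizontal axis, log scale), with called genes coloured by direction. Of the called genes 3306 are higher and 2233 lower, and most dim genes on the left are not called.

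The 41 gene lists followed, of which 892 members were measured, separated into a few groups that moved almost as a whole and many that were mixed. Genes of mitosis and of DNA replication fell almost without exception. Targets of ATF4, histone genes, ribosomal protein genes and pigment cell genes had the highest shares of members that rose. Heat shock genes, Hsp90 clients, targets of p53 and the genes of apoptosis were split. Over all genes 16.7% rose and 11.3% fell, and over the brighter ones 28% and 23.1%. Lists near these shares moved no more often than genes at large.

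**Figure D2:**
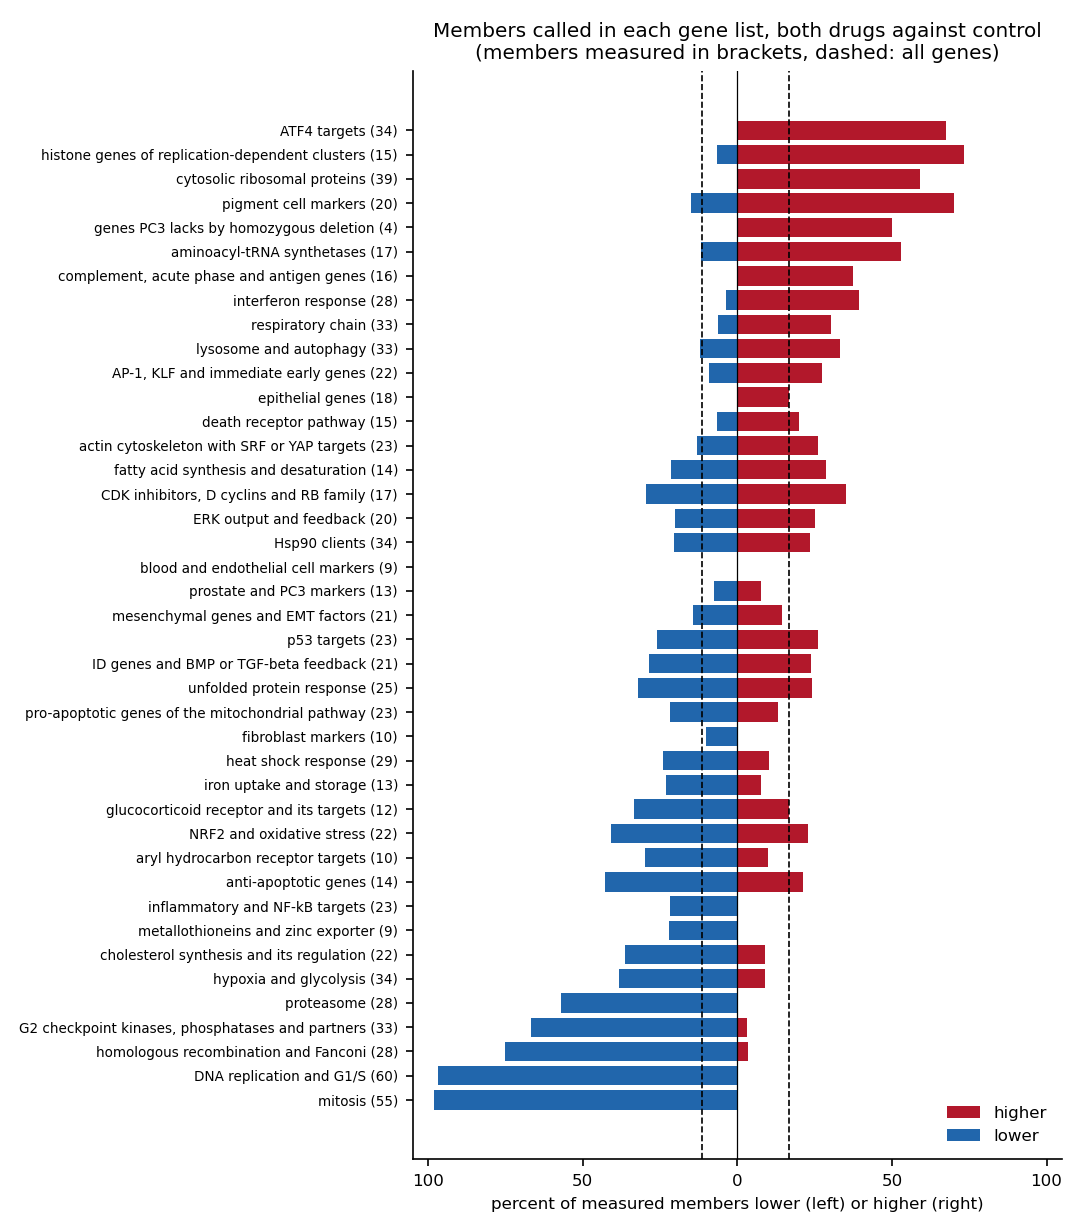
Percent of the measured members of each gene list that were called higher (right) or lower (left) with both drugs against control, with the number measured in brackets; dashed lines show 16.7% and 11.3%, the shares of all genes called higher and lower. Mitosis (54 of 55) and DNA replication (58 of 60) stand at the lower end, and histone genes (11 of 15) and ATF4 targets (23 of 34) at the upper end.

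With control replicate 2 included as a control the counts were lower in 38 of the 41 lists by over 1.5 times. Falls then numbered 28 of 55 for mitosis, 32 of 60 for replication, 8 of 33 for the G2 checkpoint (1 rose), 13 of 28 for recombination, 4 of 28 for the proteasome and 5 of 34 for hypoxia and glycolysis (1 rose). Rises numbered 14 of 34 for ATF4 targets, 10 of 39 for ribosomal proteins, 1 of 15 for histones and 2 of 16 for complement and acute phase genes. The calls were 1 up and none down for heat shock, 5 and 3 for Hsp90 clients, 2 and 2 for the unfolded protein response, 1 and 1 for p53 targets, 2 and 2 for CDK inhibitors, 1 and 2 for pro-apoptotic, none and 3 for anti-apoptotic and none for death receptor genes. They were 1 and 5 for cholesterol, 2 and none for fatty acids, 1 and 1 for NRF2, none and 2 for iron, 2 and none for the respiratory chain and 1 and 1 for the lysosome. For ERK output they were none and 2, for AP-1 and KLF genes 4 and 1, for the ID and BMP list 1 and 4, for NF-kB targets none and 2, for interferon none and 1 and for the glucocorticoid receptor list 1 and 1. No call was left for pigment, epithelial, mesenchymal, fibroblast, metallothionein and aryl hydrocarbon receptor genes or those deleted from PC3, and 1 fall for prostate and PC3 markers. Of 179 named genes that were called, 82 lost the call and 14 changed sign with that array.

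Genes of cell division had the lowest medians of the 41 lists. Among 55 genes of mitosis 54 fell and none rose, with a median log2 fold change of -1.71 beside 0.11 for all genes, and INCENP (0.02, adjusted p = 0.96) was the member not called. Of 60 measured genes that copy DNA or carry cells into S phase, 58 fell and none rose, with a median of -1.48, and DUT (-0.23) and POLD2 (-0.10) were not called. In homologous recombination and the Fanconi pathway 21 of 28 fell and 1, FANCF, rose (0.72), with a median of -1.12. In bulk RNA, fewer dividing cells and less of these transcripts per cell cannot be told apart.

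The promoters of 3 genes that fell are shown because the 2 groups are known for short elements near their start sites. They are the 250 bases before the start in the RefSeq table for GRCh38.p14, printed 5′ to 3′ on the gene's strand, with matches in capitals.
TYMS (chr18:657403-657652, plus strand): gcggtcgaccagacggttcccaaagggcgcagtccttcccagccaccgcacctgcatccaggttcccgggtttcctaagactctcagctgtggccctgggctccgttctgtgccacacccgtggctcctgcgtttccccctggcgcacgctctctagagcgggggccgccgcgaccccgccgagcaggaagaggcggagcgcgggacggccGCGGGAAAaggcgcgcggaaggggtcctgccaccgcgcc
SPC25 (chr2:168890431-168890680, minus strand): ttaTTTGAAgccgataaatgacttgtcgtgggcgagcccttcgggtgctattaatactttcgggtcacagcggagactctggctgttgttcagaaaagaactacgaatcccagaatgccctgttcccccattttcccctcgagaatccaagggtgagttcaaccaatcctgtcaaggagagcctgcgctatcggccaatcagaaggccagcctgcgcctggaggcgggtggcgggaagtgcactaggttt
KIF11 (chr10:92592880-92593129, plus strand): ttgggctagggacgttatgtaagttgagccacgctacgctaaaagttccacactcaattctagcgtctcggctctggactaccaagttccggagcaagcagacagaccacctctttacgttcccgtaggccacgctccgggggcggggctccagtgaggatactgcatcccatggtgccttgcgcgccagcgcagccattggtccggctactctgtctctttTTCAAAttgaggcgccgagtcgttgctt
In TYMS, the thymidylate synthase that makes the DNA precursor dTMP, the capitals mark the E2F element TTTNNCGC on either strand. It was found in 22 of 51 replication genes with a promoter in the table (43.1%) and in 7.15% of all 27305 promoters of this length. In SPC25, a subunit of the kinetochore's NDC80 complex, and KIF11, the motor that pushes spindle poles apart, they mark the cell cycle homology core TTTGAA. The match in KIF11 begins 28 bases before the start, but that in SPC25 begins 247 bases before it, at the far edge of the 250 bases. That core was present in 24 of 48 mitosis genes (50%) and in 16.1% of all promoters. Both motifs were searched on both strands, and matches of one may overlap those of another.

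RRM2, the small subunit of ribonucleotide reductase, which makes deoxynucleotides, had signals of 4522 and 4814 on the control arrays and 323, 343 and 323 with both drugs. The groups were 14.2-fold apart, a log2 fold change of -3.82 ± 0.11 (adjusted p = 5.54e-06). With single drugs the signals were 2105, 2462 and 2026 with Wee1 inhibitor II alone and 2055, 2296 and 2020 with 17-AAG alone, so every array with both drugs lay below every array of the other 3 groups. TYMS read 7182 and 7519 on the control arrays and 1287, 1201 and 1345 with both drugs, a log2 fold change of -2.52 ± 0.11 (adjusted p = 9.46e-06). E2F8, a repressor of the E2F family that is itself made in S phase, read 574 and 493 on the control arrays and 41.4, 48.4 and 44.2 with both drugs, a change of -3.58 ± 0.11 (adjusted p = 5.54e-06). Cyclin E2 (CCNE2) fell by 3.08 on the log2 scale, the replication factor MCM10 by 2.77, the replisome subunit GINS1 by 2.33 and the primase PRIM1 by 2.05. MYBL2, a transcription factor of S and G2 phase, fell by 3.19, and the nuclease EXO1 and helicase BLM of DNA repair by 2.96 and 2.03.

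SPC25 had 1237 and 1061 on the control arrays and 103, 110.1 and 108 with both drugs, a log2 fold change of -3.42 ± 0.16 (adjusted p = 1.17e-05). MKI67, the antigen stained to mark cycling cells, read 406 and 559.9 on the control arrays and 71.4, 30.7 and 54.6 with both drugs, and the change was -3.27 ± 0.31 (adjusted p = 0.000161). BIRC5, or survivin, a subunit of the chromosomal passenger complex that is also counted among inhibitors of apoptosis, read 1842 and 1964 on the control arrays and 406, 435 and 382 with both drugs, a 4.67-fold fall. The passenger kinase AURKB fell by 2.49 on the log2 scale, the kinesins KIF11, KIF4A and KIF14 by 2.22, 2.19 and 2.32, separase (ESPL1) by 2.26 and the condensin subunit NCAPG by 2.35. FOXM1, the factor that drives many mitotic genes, fell by 2.55.

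Genes of the G2 checkpoint, where Wee1 acts, fell as well. Of 33 genes of the G2 checkpoint 22 fell and 1, RAD17, rose (0.57), with a median of -0.94. WEE1 itself read 758 and 822 on the control arrays and 362, 401 and 371 with both drugs, a log2 fold change of -1.06 ± 0.11 (adjusted p = 0.000213). With single drugs WEE1 read 867, 992 and 999 with Wee1 inhibitor II alone and 849, 737 and 831 with 17-AAG alone, all above the arrays with both drugs. CDK1, the kinase that Wee1 restrains, read 3294 and 4192 on the control arrays and 1102, 965 and 836 with both drugs, a change of -1.95 ± 0.18 (adjusted p = 0.000154), and its cyclin CCNB1 read 2536 and 2737 on the control arrays and 999, 936 and 932 with both drugs, a change of -1.47 ± 0.08 (adjusted p = 1.98e-05). PKMYT1, the other kinase that inhibits CDK1, fell by 1.73 and the checkpoint kinase CHEK1 by 2.11, although with the mean of its probe sets CHEK1 changed by -0.67 and was not called. CDC25C lost its call in the same way (-1.01), and all its probe sets had a signal under 100 in both groups. The phosphatases that remove the inhibitory phosphate fell unequally, CDC25A by 2.73, CDC25C by 1.65 and CDC25B by 0.59. CLSPN (claspin), an adaptor for CHEK1, changed by -2.87, or by -1.69 when signals under 32 were set to 32, because it was dim with both drugs. PLK1 fell by 1.43, its activator BORA by 1.60 and cyclin A2 (CCNA2) by 1.99.

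**Figure D3:**
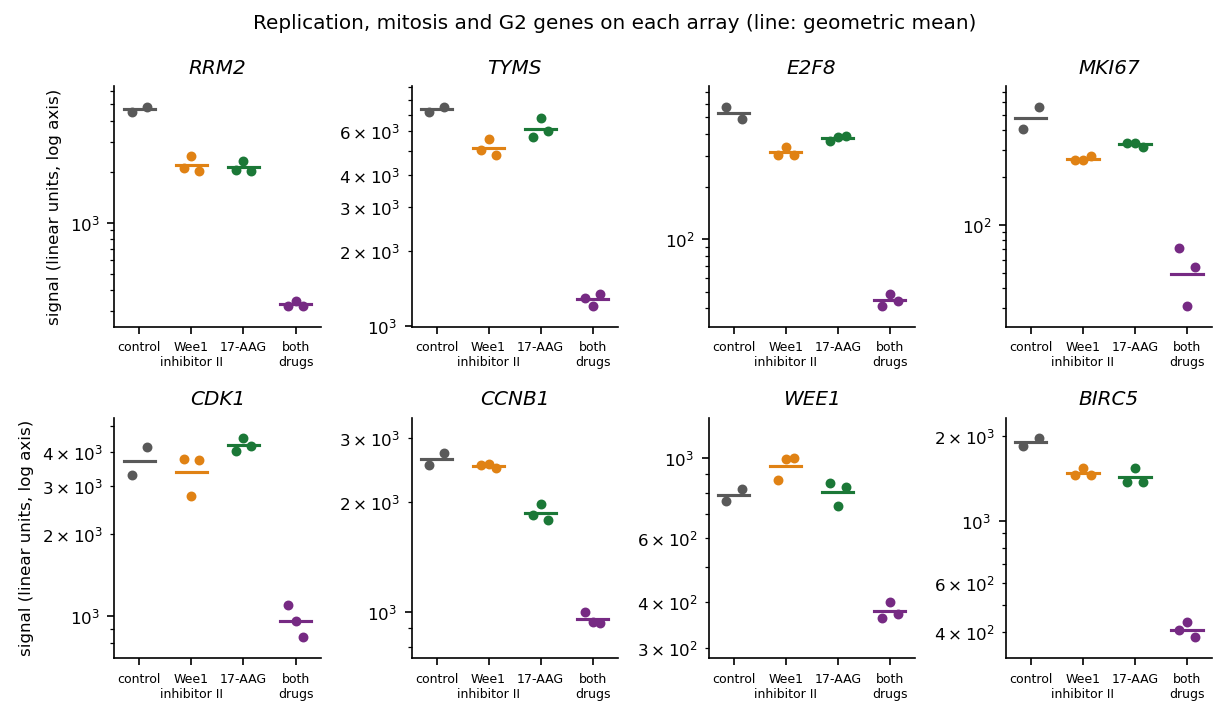
Signal (log axis) of 8 genes of replication and mitosis on each fitted array, by group (points: arrays; lines: geometric means). The 3 arrays with both drugs lie below the 8 other arrays for each of the 8 genes, for RRM2 at 323 to 343 against 4522 and 4814 in control.

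These falls were larger than with either drug alone. Across all genes 7.27% were higher and 6.84% lower with both drugs than with Wee1 inhibitor II alone, and 10.9% were higher and 8.43% lower than with 17-AAG alone. Of the mitosis genes 54 of 55 were lower with both drugs than with each single drug, by a median of 1.56 (log2) against Wee1 inhibitor II and 1.46 against 17-AAG. Of the replication genes 51 and 53 of 60 were lower, and of the G2 checkpoint genes 19 and 21 of 33. RRM2 differed by -2.73 ± 0.10 (adjusted p = 5.84e-06) from Wee1 inhibitor II alone and by -2.69 ± 0.10 (adjusted p = 7.25e-06) from 17-AAG alone. CDK1 differed by -1.82 ± 0.16 (adjusted p = 0.000221) and -2.14 ± 0.16 (adjusted p = 0.000119). In the single-drug groups, which share the 2 control arrays, 18 and 15 of the 55 mitosis genes and 39 and 27 of the 60 replication genes were lower than control. Over all genes 10.3% were lower and 14.5% higher than control with Wee1 inhibitor II alone, and 6.8% lower and 9.93% higher with 17-AAG alone. CDC25A was an exception among the phosphatases, since its difference from Wee1 inhibitor II alone did not pass the test (-0.84, adjusted p = 0.0765). DIAPH3, an actin nucleator, fell by 2.11 with both drugs, and beside it stood values of -0.04 and 0.11 with the single drugs, neither called.

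**Figure D4:**
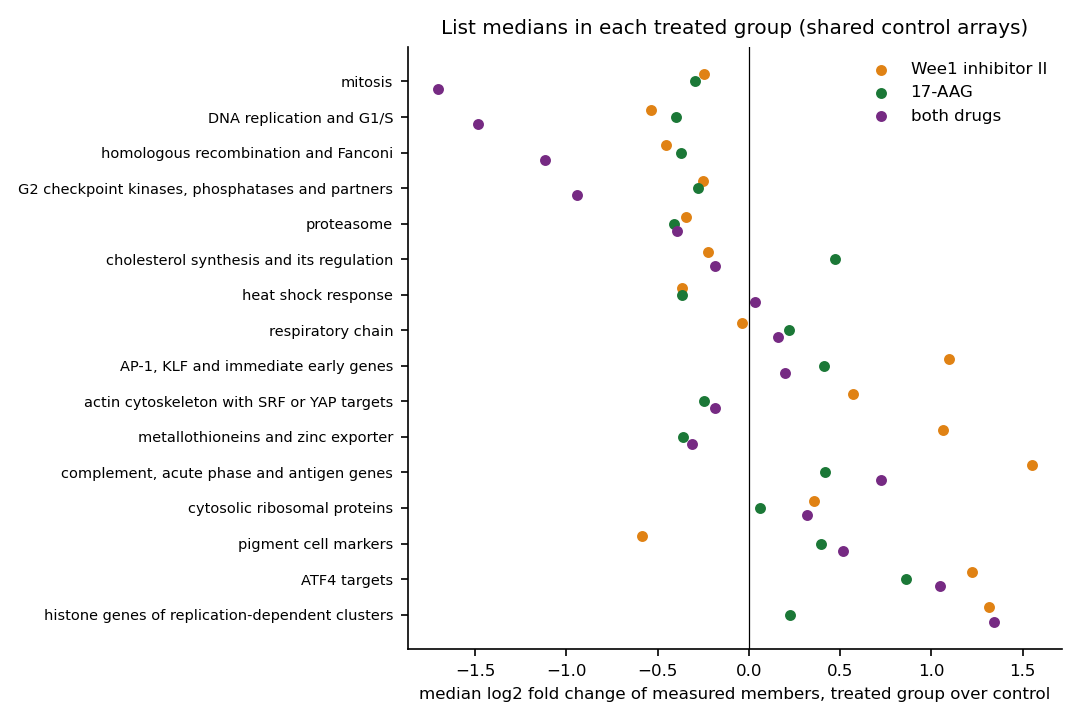
Median log2 fold change against the same control arrays of 16 gene lists with Wee1 inhibitor II alone, 17-AAG alone and both drugs. With both drugs the medians of mitosis (-1.71) and DNA replication (-1.48) lie far below those of either drug, while that of ATF4 targets (1.05) lies between 0.86 with 17-AAG and 1.22 with Wee1 inhibitor II.

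Genes beyond both single drugs were a minority of those that changed. Among the 2452 brighter genes that rose, 711 were also higher than with Wee1 inhibitor II alone and 1181 higher than with 17-AAG alone, and 886 differed from neither. Among the 2020 that fell, 692 were also lower than with Wee1 inhibitor II alone and 1019 lower than with 17-AAG alone, and 767 differed from neither. All 3 tests pointed the same way for 406 brighter rises and 522 brighter falls.

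The brakes of the cell cycle were mixed. Of 17 CDK inhibitors, D cyclins and RB family genes 6 rose and 5 fell, or 3 and 7 with centred arrays. CDKN1A, the p21 inhibitor that p53 induces, was not called (0.02 ± 0.36, adjusted p = 0.981). Its signal was under 100 in both groups, where genes are called less often. CDKN1C (p57) rose by 1.62 on the log2 scale but stayed below its level with Wee1 inhibitor II alone (-0.85 ± 0.16, adjusted p = 0.00911). CDKN2D (p19) fell by 2.06 and the pocket protein RBL1 (p107) by 1.57, while E2F5 rose by 1.55. Cyclin D1 (CCND1) changed by 0.38 against control, by -0.51 against Wee1 inhibitor II alone and by 0.46 against 17-AAG alone. Among 23 targets of p53, 6 rose and 6 fell, or 2 and 7 with centred arrays, and 7 were called without control replicate 1 or without replicate 3 of both drugs. TP53INP1 rose by 1.67, while AEN fell by 1.78, MDM2, the ligase that degrades p53, by 1.07 and DDB2 by 1.03. With the mean of probe sets TP53INP1 (0.19), MDM2 (-0.40), CDKN2D (-1.07) and E2F5 (0.69) were not called, and 1 of the 3 probe sets of TP53INP1 had its sign. The call of CCND1 was lost without control replicate 1 (0.38) or 3 (0.39) and with centred arrays (0.19).

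Targets of ATF4 rose. Of 34 measured targets 23 rose and none fell, with a median of 1.05. The promoters of 2 of them are shown with matches to the C/EBP-ATF element TGATGNAA on either strand, the composite site that ATF4 is known to bind, in capitals.
ASNS (chr7:97872409-97872658, minus strand): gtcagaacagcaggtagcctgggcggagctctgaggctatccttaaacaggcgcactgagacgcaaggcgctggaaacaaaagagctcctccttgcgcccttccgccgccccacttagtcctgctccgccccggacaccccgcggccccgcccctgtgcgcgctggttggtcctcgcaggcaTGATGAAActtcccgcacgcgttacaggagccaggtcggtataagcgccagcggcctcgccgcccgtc
CHAC1 (chr15:40953221-40953470, plus strand): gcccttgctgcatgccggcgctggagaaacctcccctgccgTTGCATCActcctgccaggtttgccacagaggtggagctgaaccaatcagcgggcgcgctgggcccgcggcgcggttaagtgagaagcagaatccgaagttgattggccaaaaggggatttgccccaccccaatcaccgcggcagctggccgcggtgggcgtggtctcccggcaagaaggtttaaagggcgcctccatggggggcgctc
The element was found in 5 of the 27 targets with a promoter in the table (18.5%) and in 3.89% of all promoters.

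ASNS, which makes asparagine, read 1274 and 1263 on the control arrays and 6173, 6270 and 6358 with both drugs, a 4.94-fold rise (2.30 ± 0.14, adjusted p = 2.4e-05). With single drugs it read 6478, 6356 and 6685 with Wee1 inhibitor II alone and 4389, 3368 and 4786 with 17-AAG alone. Its level with both drugs was not distinguishable from that with Wee1 inhibitor II alone (-0.05 ± 0.12, adjusted p = 0.844) and above that with 17-AAG alone (0.60 ± 0.12, adjusted p = 0.0114). CHAC1, which degrades glutathione, read 29.8 and 43.1 on the control arrays and 231, 161 and 244 with both drugs, a change of 2.54 ± 0.29 (adjusted p = 0.000367). NUPR1, a small stress-induced chromatin protein, read 460.2 and 519.5 on the control arrays and 2840, 2698 and 2766 with both drugs, a change of 2.50 ± 0.20 (adjusted p = 7.35e-05). As for all called genes, neither overlapped between control and both drugs. PCK2, a mitochondrial enzyme of gluconeogenesis, rose by 2.45 and PHGDH, the first enzyme of serine synthesis, by 1.94. DDIT3 (CHOP), a target linked to cell death, was not called against control (0.60 ± 0.36, adjusted p = 0.285) and was lower than with 17-AAG alone (-1.26 ± 0.32, adjusted p = 0.0293). Of the 34 targets, 3 were higher and 1 lower than with Wee1 inhibitor II alone, and 7 higher and 4 lower than with 17-AAG alone.

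The enzymes that charge tRNAs with amino acids moved in part with them. Of 17 aminoacyl-tRNA synthetases 9 rose and 2 fell, with a median of 0.40. WARS1 rose by 1.77, SARS1 by 1.21, CARS1 by 0.94 and IARS1 by 0.77. Both subunits of the phenylalanine enzyme, FARSA (-0.64) and FARSB (-0.59), fell.

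Heat shock genes did not rise as a group. Of 29 measured members 3 rose and 7 fell, with a median of 0.03 that became -0.16 when arrays were centred, and 6 and 4 were called without control replicate 1 and without control replicate 3. All 29 were among the brighter genes, of which 28% rose and 23.1% fell, beside 10.3% and 24.1% here. Beside this, 14 and 15 of the 29 were lower than control with Wee1 inhibitor II and 17-AAG alone, with medians of -0.37 in both cases, beside 10.3% and 6.8% of all genes. Against the single drugs 9 members were higher and none lower than with Wee1 inhibitor II, and 11 were higher and 1 lower than with 17-AAG. The promoters of 2 members are shown with the heat shock element core GAANNTTC, searched on both strands, in capitals, a core found in 13 of 26 members (50%) and 7.05% of all promoters.
DNAJB1 (chr19:14518398-14518647, minus strand): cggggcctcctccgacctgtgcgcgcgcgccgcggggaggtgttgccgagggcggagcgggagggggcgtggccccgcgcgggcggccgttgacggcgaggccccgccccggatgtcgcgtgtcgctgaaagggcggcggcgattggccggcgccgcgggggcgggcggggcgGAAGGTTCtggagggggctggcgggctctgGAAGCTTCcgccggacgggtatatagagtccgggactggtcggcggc
CHORDC1 (chr11:90223050-90223299, minus strand): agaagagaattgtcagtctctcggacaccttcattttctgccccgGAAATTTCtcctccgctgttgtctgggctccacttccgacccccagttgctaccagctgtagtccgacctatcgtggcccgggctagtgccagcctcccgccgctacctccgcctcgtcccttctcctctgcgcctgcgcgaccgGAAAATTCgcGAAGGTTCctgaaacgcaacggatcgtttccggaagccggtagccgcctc
DNAJB1 holds 2 matches and CHORDC1 holds 3.

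DNAJB1, the Hsp40 partner of Hsp70, read 1197 and 1186 on the control arrays and 874, 885 and 908 with both drugs, a change of -0.42 ± 0.09 (adjusted p = 0.0104). With single drugs it read 737, 685 and 754 with Wee1 inhibitor II alone and 480.1, 564 and 489.6 with 17-AAG alone, so the group with both drugs lay between them and control. It was higher than with 17-AAG alone (0.80 ± 0.08, adjusted p = 0.000499), and the difference from Wee1 inhibitor II alone missed the threshold (0.29 ± 0.08, adjusted p = 0.0534). CHORDC1, a cochaperone of Hsp90, read 1836 and 1764 on the control arrays and 1145, 1156 and 1276 with both drugs, below control (-0.60 ± 0.09, adjusted p = 0.00167) and above both single drugs (0.66 and 0.48). Of its 2 probe sets 1 had that sign against control, and their mean (-0.09) was not called. Without control replicate 1 or 3 the call of DNAJB1 was lost (-0.42 and -0.43). CACYBP fell by 0.57 and HSPA4, a nucleotide exchange factor of Hsp70, by 0.54, and 3 of the 4 brighter probe sets of HSPA4 had that sign. With the mean of probe sets both calls were lost (-0.24 and -0.32). SERPINH1, a collagen chaperone of the endoplasmic reticulum, read 184 and 177 on the control arrays and 750.5, 688 and 729 with both drugs, a 4-fold rise, while HSPB1 (Hsp27) was higher by 0.33 (adjusted p = 0.0471), a call lost with centred arrays (0.13), with the replicate block (0.35) and without control replicate 1 (0.28) or 3 (0.37), replicate 1 (0.32) or 3 (0.28) of both drugs, or any 1 of 5 single-drug arrays (0.33). The genes of Hsp90 itself, HSP90AA1 (0.13 ± 0.11, adjusted p = 0.452) and HSP90AB1 (0.05 ± 0.09, adjusted p = 0.77), and HSF1 (0.21 ± 0.19, adjusted p = 0.492) were not called; 2 of the 4 brighter probe sets of HSP90AA1 shared its sign. HSPA1A, HSPA1B and HSPA8 were not among the genes tested.

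Hsp90 clients, whose protein rather than RNA depends on the chaperone, split into 8 that rose and 7 that fell among 34, or 7 and 9 with centred arrays, which moved the median from 0.09 to -0.11. Those that rose were the receptors and kinases MET, IGF1R, ERBB2, ERBB3, FGFR1, SRC, ABL1 and IKBKB. Those that fell were the cell cycle kinases AURKB, CHEK1, CDK1, PLK1, WEE1 and CDK4, and HIF1A. The clients that rose and fell were 23.5% and 20.6% of the 34, beside 16.7% and 11.3% of all genes. Among the 24 brighter clients 7 rose and 7 fell, beside 28% and 23.1% of all brighter genes. Of 25 genes of the unfolded protein response 6 rose and 8 fell, a split that became 3 and 10 with centred arrays. HERPUD1 (1.11), which serves degradation from the endoplasmic reticulum, and the sensor ATF6 (1.07) rose, and MANF (-0.94) and the oxidase ERO1A (-0.78) fell. Of 28 proteasome subunits 16 fell and none rose, with a median of -0.40. The falls numbered 10 without control replicate 3. PSMD12 (-0.94), PSMD11 (-0.85), PSMD14 (-0.74) and PSMC3 (-0.70) belong to the regulatory cap. Against Wee1 inhibitor II alone 1 proteasome gene differed and against 17-AAG alone limma called none (10 at an unadjusted p under 0.05), and 15 of 28 were lower than control with each single drug (10.3% and 6.8% of all genes). All 28 were among the brighter genes, whose shares with the single drugs against control are not given here.

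**Figure D5:**
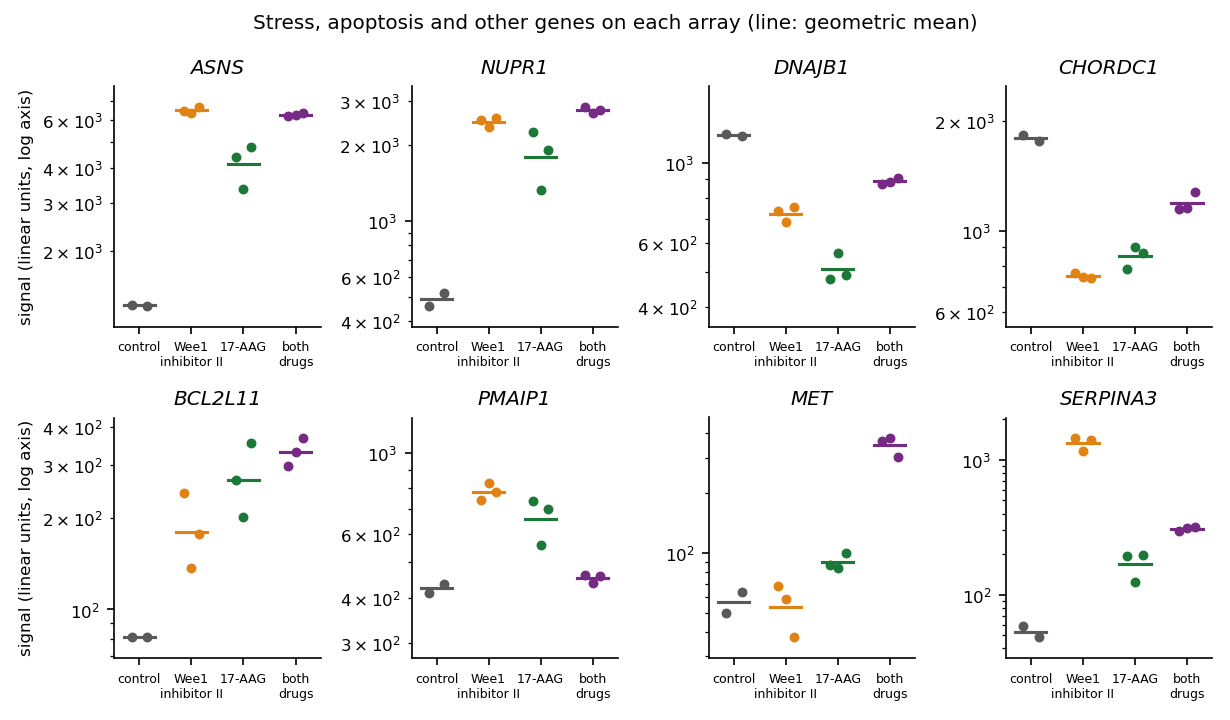
Signal (log axis) of 8 genes of the stress response, apoptosis and signalling on each fitted array, by group (points: arrays; lines: geometric means). ASNS is at 6173 to 6358 with both drugs and at 1263 and 1274 in control, while MET is at 304 to 378 with both drugs and at 49.9 and 63.7 in control.

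Among genes of the mitochondrial pathway of apoptosis, BCL2L11 rose. It encodes BIM, a BH3-only protein that binds the protective BCL2 family members. Its signals were 80.8 and 81.2 on the control arrays and 297, 331 and 368 with both drugs, a 4.08-fold rise (2.03 ± 0.28, adjusted p = 0.000986), and 0.70 with the mean of its probe sets, also called. With single drugs it read 242, 137 and 178 with Wee1 inhibitor II alone and 267, 203 and 354 with 17-AAG alone. The highest group was that with both drugs, but its difference from Wee1 inhibitor II alone (0.87 ± 0.25, adjusted p = 0.0537) and from 17-AAG alone (0.30 ± 0.25, adjusted p = 0.476) did not pass the test. PMAIP1 (NOXA), another BH3-only gene, read 413 and 436 on the control arrays and 462, 439 and 459.8 with both drugs and was not called (0.10 ± 0.13, adjusted p = 0.662). It was lower with both drugs than with Wee1 inhibitor II alone (-0.79 ± 0.11, adjusted p = 0.00247) and than with 17-AAG alone (-0.54 ± 0.11, adjusted p = 0.0118).

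Of the 23 measured pro-apoptotic genes of this pathway, 3 rose and 5 fell, or 1 and 7 with centred arrays. These are 13% and 21.7%, beside 16.7% and 11.3% of all genes and 28% and 23.1% of the brighter ones. The others that rose were HRK (0.72), also BH3-only, and BOK (0.71), a relative of BAX. Falls were seen for BNIP3 (-1.001), the mitochondrial protease HTRA2 (-0.97) and APAF1 (-0.48), the scaffold of the apoptosome. The pore-forming BAX (-0.23, adjusted p = 0.318) and BAK1 (-0.12, adjusted p = 0.62) were not called. Nor were BID (0.17), BMF (-0.38), BIK (0.31), cytochrome c (CYCS, -0.16, a sign shared by 1 of its 3 brighter probe sets), DIABLO (-0.12) and CASP9 (0.00). BMF and BIK had signals under 100 in both groups, where genes are called less often. BBC3 was not among the genes tested. The call of HRK was lost without control replicate 1 (0.56) and with the mean of its probe sets (0.30). That of APAF1 was lost with the mean of its probe sets (-0.03), without control replicate 1 (-0.38) or 3 (-0.58), without replicate 1 or 3 of both drugs (-0.44 in each case) and without any 1 of 3 single-drug arrays (-0.48). Counts in this list fell to 4 without control replicate 1, 5 without control replicate 3 and 5 without replicate 3 of both drugs.

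Of 14 anti-apoptotic genes 3 rose and 6 fell, or 1 and 6 with centred arrays. BCL2 rose (0.90 ± 0.11, adjusted p = 0.000489), which the mean of its probe sets (0.26, not called) did not show, and MCL1 was higher by 0.38 (adjusted p = 0.0288), although only 1 of its 2 brighter probe sets had that sign and the mean of its probe sets was lower than control. The call of MCL1 was also lost without any 1 of the 5 arrays compared (0.32 to 0.45). BIRC5 fell most, as given with the mitotic genes, and BIRC2 (cIAP1, -0.91) and BAG1 (-0.81), a cochaperone of Hsp70, fell too. BCL2L1 (0.27, adjusted p = 0.376) and XIAP (0.10, adjusted p = 0.582) were not called. Without control replicate 1 the list had 5 called members. In the death receptor pathway 3 of 15 rose and 1 fell, or none and 2 with centred arrays, and none was called without control replicate 1. Over all genes 16.7% rose and 11.3% fell, beside 20% and 6.7% in this pathway. Only 5 of the 15 were among the brighter genes, and of these 1 rose and none fell. The adaptor TRADD was higher by 0.58, a call lost without control replicate 1 (0.44) or replicate 1 of both drugs (0.52), and the receptor FAS fell by 0.69.

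Some genes rose beyond both single drugs. MET, the receptor for hepatocyte growth factor and an Hsp90 client, read 49.9 and 63.7 on the control arrays and 368, 378 and 304 with both drugs, a 6.18-fold rise (2.63 ± 0.25, adjusted p = 0.000165). With single drugs it read 68.3, 58.6 and 37.4 with Wee1 inhibitor II alone and 86.4, 83.6 and 99.5 with 17-AAG alone. Its level with both drugs was above that with Wee1 inhibitor II alone (2.71 ± 0.22, adjusted p = 0.000152) and with 17-AAG alone (1.96 ± 0.22, adjusted p = 0.000756). CEMIP, which degrades hyaluronan, read 36.0 and 54.6 on the control arrays and 346, 391 and 303 with both drugs and differed by 4.19 and 2.62 (log2) from the single drugs. VEPH1 read 178 and 208 on the control arrays and 1438, 1693 and 1656 with both drugs, a change of 3.05 ± 0.14 (adjusted p = 1.17e-05), but the mean of its probe sets changed by 0.74 and was not called. MET and PCDH7 kept the call with the mean of their probe sets, at 1.06 and 0.41. The semaphorins SEMA5A and SEMA6D rose by 2.72 and 2.15, and PLXNC1, a semaphorin receptor, by 2.26. The muscle-type tropomyosin TPM2 rose by 2.39, the haemoglobin gene HBE1 by 3.51, the antisense transcript C10orf95-AS1 by 1.62 and the protocadherin PCDH7 by 2.96, the last in 1 of its 2 brighter probe sets.

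Besides the genes above, the 522 brighter falls that exceeded both single drugs included those of the centromere protein CENPM (-2.76), the glycosylase NEIL3 (-2.69), the kinetochore subunit SPC24 (-2.48) and the protease gene FAM111B (-3.17). LINC02915, a non-coding RNA, fell by 4.10, the largest fall among the genes with a signal of at least 100 as measured, but by 3.59 with signals under 32 set to 32, less than RRM2.

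Several of the largest rises started from dim control signals and are smaller when signals under 32 are set to 32. LTBP2, which binds latent TGF-beta, rose by 4.04, or 2.09 with that floor. The complement protease C1S rose by 3.42, or 2.44, ZNF580 by 3.74, or 1.75, LINC00324 by 3.24, or 1.90, CCDC92 by 3.15, or 1.83, and AP1G2-AS1 by 3.14, or 2.05. SEL1L3 rose by 3.04, or 2.77. EDIL3, an integrin ligand, rose by 2.99 with or without the floor, but by 0.75, not called, with the mean of its probe sets.

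Histone genes rose while replication genes fell. Of 15 measured genes of the histone clusters, most of whose transcripts normally end without a poly(A) tail and are made in S phase, 11 rose and 1 fell, with a median of 1.34. H2AC6 read 63.4 and 56.3 on the control arrays and 505, 607 and 559 with both drugs, a change of 3.22 ± 0.12 (adjusted p = 5.73e-06). With single drugs it read 378, 367 and 365 with Wee1 inhibitor II alone and 76.6, 69.8 and 63.5 with 17-AAG alone. H2BC21 rose by 3.77, or 2.75 with signals under 32 set to 32, H2BC12 by 2.94 and H2AC8 by 1.95. Against 17-AAG alone 9 histone genes were higher and 1 lower, and against Wee1 inhibitor II alone 2 were higher and 1 lower. Labelling for these arrays primes on poly(A) tails, so the values rest on polyadenylated transcripts, and near-identical histone genes may share probes.

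Ribosomal protein genes showed a small shift. Of 39 measured, 23 rose and none fell, with a median of 0.32, but 1 rose with centred arrays, 5 with quantile normalisation, and 9, 15 and 14 without control replicate 1, control replicate 3 and replicate 2 of both drugs. RPL12 (0.62), RPL3 (0.49), RPL29 (0.48) and RPS12 (0.46) were among them. Against 17-AAG alone 17 were higher and none lower, and against Wee1 inhibitor II alone limma called none (0 at an unadjusted p under 0.05).

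Immediate early genes were lower with both drugs than with Wee1 inhibitor II alone. Among 22 immediate early genes of the AP-1 and KLF families 18 were above control with Wee1 inhibitor II alone (14.5% of all genes), and 14 were lower with both drugs than with it, none higher. Against control 6 rose and 2 fell with both drugs, or 3 and 3 with centred arrays, and 5 were called when any 1 of control replicates 1 and 3 and replicates 1 and 3 of both drugs was left out. FOSL1, an AP-1 subunit that follows ERK activity, read 157 and 184 on the control arrays and 50.3, 48.5 and 60.7 with both drugs, a change of -1.69 ± 0.19 (adjusted p = 0.000378), and was -2.70 (log2) from Wee1 inhibitor II alone. MAFF fell by 1.11, while FOSL2 rose by 0.94 and the nuclear receptor NR4A2 by 1.31.

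Of 20 genes of ERK output and feedback 5 rose and 4 fell against control, or 2 and 9 with centred arrays, and 10 were lower and none higher than with Wee1 inhibitor II alone. When either control array was left out 5 were called. IER3, an immediate early gene that modulates cell death, read 1114 and 1221 on the control arrays and 391, 383 and 388 with both drugs, a change of -1.59 ± 0.21 (adjusted p = 0.000769), with -2.37 and -1.72 from the single drugs. The feedback inhibitor SPRY2 changed by -0.75 against control, by -1.56 against Wee1 inhibitor II and by -1.30 against 17-AAG. PHLDA1 rose by 1.02, in 5 of its 6 brighter probe sets.

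Genes of the actin cytoskeleton and targets of SRF or YAP gave 6 rises and 3 falls among 23, or 4 and 4 with centred arrays. Of the 23, 10 were lower and 1 higher than with Wee1 inhibitor II alone, 9 higher and 1 lower than with 17-AAG alone. THBS1, a matrix glycoprotein, fell by 1.37 in 5 of its 6 brighter probe sets and the tropomyosin TPM1 by 0.82, while AJUBA rose by 0.94. Inflammatory and NF-kB targets gave 5 falls and no rise among 23, and 1 call without control replicate 1 or 3. Only 6 of the 23 had a signal of at least 100 in control or with both drugs, and 1 of the falls was among them. Of these 23, 8 were lower and 1 higher than with Wee1 inhibitor II alone. Among 9 metallothionein genes and their zinc exporter 2 fell, MT1X (-0.44) and SLC30A1 (-1.84), and 1 was called when any 1 of the 5 arrays compared was left out, MT1X (-0.50 to -0.38) losing its call. Against Wee1 inhibitor II alone 6 were lower, MT1X by 1.63.

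Complement and acute phase genes stood between control and Wee1 inhibitor II alone. Of 16, 6 rose and none fell, with a median of 0.73 beside 1.55 with Wee1 inhibitor II alone, and 9 were lower and none higher than with Wee1 inhibitor II alone. SERPINA3, an inhibitor of chymotrypsin-like proteases, read 58.1 and 48.2 on the control arrays and 299, 311 and 317 with both drugs, a 5.84-fold rise, but was below Wee1 inhibitor II alone (-2.11 ± 0.19, adjusted p = 0.000205) and above 17-AAG alone (0.87 ± 0.19, adjusted p = 0.0131). C1R, which activates C1S, rose by 1.79. Of 28 interferon-responsive genes 11 rose and 1 fell, or 7 and 1 with centred arrays. HLA-B (1.02) and HLA-E (0.59), which present peptides, IFITM3 (1.04), which blocks viral entry, and IFI35 (0.62) were among them.

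The 4 ID genes, inhibitors of basic helix-loop-helix factors that BMP signalling induces, all fell. ID1 read 476 and 444 on the control arrays and 55.2, 49.2 and 38.7 with both drugs, a 9.74-fold fall (-3.28 ± 0.22, adjusted p = 3.6e-05). With single drugs it read 140.3, 150.3 and 152 with Wee1 inhibitor II alone and 49.5, 33.3 and 54.5 with 17-AAG alone, and the group with both drugs was lower than Wee1 inhibitor II alone (-1.65 ± 0.20, adjusted p = 0.00104) and was not called against 17-AAG alone (0.08 ± 0.20, adjusted p = 0.85). ID3 fell by 2.87 and ID4 by 1.20. ID2 read 1492 and 1674 on the control arrays and 862, 863 and 856 with both drugs, a smaller fall (-0.88 ± 0.13, adjusted p = 0.00126) that left it above both single drugs (1.01 and 1.11). Of the 21 genes of this list 5 rose and 6 fell, or 3 and 6 with centred arrays, where the median went from 0.20 to 0.00, and BMPR2, a BMP receptor, rose by 1.00.

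Many genes of lipid synthesis were below their level with 17-AAG alone. Of 22 cholesterol genes, enzymes and regulators, 2 rose and 8 fell against control, with a median of -0.19. Against 17-AAG alone, which had 9 of the 22 above control (9.93% of all genes), 15 were lower and none higher. ACAT2, which condenses acetyl-CoA at the entry to the pathway, read 795 and 656 on the control arrays and 201, 234 and 192 with both drugs, a change of -1.79 ± 0.14 (adjusted p = 6.32e-05), and differed by -2.25 ± 0.12 (adjusted p = 3.05e-05) from 17-AAG alone. The sterol isomerase EBP fell by 1.24 and HSD17B7 by 0.56, while SREBF1, the gene of the SREBP-1 transcription factor, rose by 0.73 in its brightest probe set. In fatty acid synthesis 4 of 14 rose and 3 fell, or 2 and 3 with centred arrays. When control replicate 1 or 3 or replicate 1 or 3 of both drugs was left out, 3 or 4 were called. Of the 14, 8 were lower and none higher than with 17-AAG alone. ACSS2, which makes acetyl-CoA from acetate, rose by 1.20, the phosphatidate phosphatase LPIN1 by 0.43 (0.39, not called, without control replicate 3) and the desaturase SCD by 0.70 in 2 of its 4 brighter probe sets, and the elongase ELOVL6 fell by 0.77.

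In hypoxia and glycolysis 3 of 34 rose and 13 fell. PFKFB4, which makes the activator of phosphofructokinase, fell by 1.46 and the peptide hormone ADM by 1.09, while MXI1, an antagonist of MYC, rose by 1.28. In the respiratory chain 10 of 33 rose and 2 fell, or 2 and 2 with centred arrays, and 7 were called without control replicate 1. All 33 were among the brighter genes, and the 30.3% that rose lay near the 28% of all brighter genes. NDUFA1 (0.71) and UQCRC2 (0.53) rose and NDUFS3 (-0.76) and ATP5MC1 (-0.94) fell. Against Wee1 inhibitor II alone 11 of the 33 were higher and none lower. Lysosome and autophagy genes gave 11 rises and 4 falls among 33, or 4 and 5 with centred arrays, and 8 calls without control replicate 1 or 3. ATG14 (0.85) and WIPI1 (0.79) of autophagosome formation and the hydrolases CTSB (0.71) and HEXA (0.69) rose.

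Genes of oxidative defence under NRF2 gave 5 rises and 9 falls among 22, with 5 to 9 called when any 1 of control replicates 1 and 3 and replicates 1 and 3 of both drugs was left out. SRXN1 (-1.22) and GCLM (-1.07), which makes glutathione, fell, and PGD (0.84) of the pentose phosphate pathway rose. Of 13 iron genes the ferritin light chain FTL rose (0.37, not called with centred arrays or without control replicate 1, at 0.35, or 3, at 0.38) and 3 fell, among them the transferrin receptor TFRC (-1.44) and STEAP1, of the metalloreductase family, (-1.44). Of these iron genes 2 were called without control replicate 3. Of 12 genes of the glucocorticoid receptor list, a receptor that Hsp90 holds ready for its ligand, 4 fell, among them FKBP5 (-1.35), DUSP1 (-0.998) and SGK1 (-0.57), and 2 rose, among them GLUL (0.63). Of 10 genes of the aryl hydrocarbon receptor list 3 fell, among them CYP1A1 (-1.54, not called without control replicate 1, at -1.56, or 3, at -1.53) and TIPARP (-0.85), and the repressor AHRR rose (0.75). Without control replicate 3 this list had 2 called members.

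Some further calls rest on the brightest probe set of a gene. With the mean of probe sets DIAPH3 (-1.52), SARS1 (0.62), HERPUD1 (0.88), PSMD11 (-0.49), SCD (0.07), PGD (0.38), MT1X (-0.30), DUSP1 (-0.91), RPS12 (0.35), PHLDA1 (0.38), FOSL2 (0.62), TPM1 (-0.29), AJUBA (0.94), BMPR2 (0.31), ITGB3 (-0.42), RAB27A (-0.09), STAT5B (0.45) and TRADD (0.50) were not called. SREBF1 (-0.17) and HEXA (-0.03) then had the opposite sign. The call of SPC24 was kept at -1.19, and that of HBE1 at 2.10.

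Pigment cell genes rose, although the shift was small and depended on the scaling and on the control arrays. Of 20 measured, 14 rose and 3 fell, with a median of 0.51. The counts were 5 and 3 with centred arrays, and 11 were called without control replicate 1. TYR, tyrosinase, which makes melanin, read 1950 and 2377 on the control arrays and 5104, 4898 and 4574 with both drugs, a change of 1.17 ± 0.14 (adjusted p = 0.000486). The receptors ERBB3 (1.02) and EDNRB (0.60) rose. RAB27A, which moves melanosomes, fell by 0.90, a sign shared by 2 of its 5 brighter probe sets. Against Wee1 inhibitor II alone 12 of the 20 were higher and 1 lower, and against 17-AAG alone 4 were higher and 3 lower.

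Other marker lists had few called members. Among 18 epithelial genes 3 rose, among them the splicing factor ESRP1 (1.21), while the summed signal of the list was 916 to 966 in control and 1449 to 1537 with both drugs. The share that rose, 16.7%, was that of all genes. Among 21 mesenchymal genes, with a median of 0.19 that became -0.01 with centred arrays, 3 rose, among them TWIST1 (0.63) and COL6A1 (1.58, or 1.34 and not called without control replicate 1), and 3 fell, among them TNC (-1.03) and ITGB3 (-0.73). Of 10 fibroblast markers LUM fell (-0.63), and 2 and 3 fibroblast markers were called without replicate 2 of both drugs and without control replicate 1. Their median went from 0.02 to -0.18 with centred arrays. Of 9 blood and endothelial markers limma called none under any of the settings tried (1 at an unadjusted p under 0.05), and their summed signal was 119 to 122 in control and 125 to 133 with both drugs. The median of these 9 went from 0.03 to -0.16 with centred arrays. STAT5A (0.77) and STAT5B (1.05), 2 of the 4 genes deleted from PC3, rose.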

How the data were processed

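The authors deposited 1 intensity for each probe set on each of 12 Affymetrix arrays. Partek 6.5 and RMA are named in the submitters' processing notes. The values are linear and share a trimmed mean of 150 on every array, which RMA output would not, so how the authors made them is not given in the sources used here. They were log2 transformed and not normalised again.

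Of 54675 probe sets, 41091 carried 1 gene symbol, and 1801 with several and 11721 with none were left out with 62 array controls. Each of 19775 genes was represented by its brightest probe set on average over the 11 fitted arrays. Tests used limma 3.58.1 (R 4.3.3) and a model of 1 mean per group over 11 arrays (2 control, 3 of each treatment), 7 residual degrees of freedom and a prior of 1.12. P-values were adjusted by the Benjamini-Hochberg method over all genes, and genes were called at an adjusted p under 0.05. Fold changes are given on the log2 scale with the standard error of the fit. The procedure was tested on simulated data.

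Genes named are the 14 largest called rises and falls with a signal of at least 100 and groups that do not overlap, the 10 rises and 10 falls furthest beyond both single drugs, up to 4 called members per list with the smallest p, and a fixed list of cell cycle, chaperone and apoptosis genes. INCENP, DUT, POLD2, FANCF, RAD17, FARSA, FARSB, BOK, FAS, the Hsp90 clients listed without a value and the marker genes set against the label were named after their values were seen. The members and lists were chosen with earlier results of these data known. Promoters are from the RefSeq table for GRCh38.p14. Alternatives were another scaling, floor, probe set rule, prior, array weighting, replicate block and control set, and leaving out each array.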

Additional observations from a re-analysis of the deposited data

Results flagged for a closer look

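Control replicate 2, which the main comparisons leave out, stood apart from all 11 fitted arrays. On it 391 genes were at least 4-fold above every fitted array, and 276 at least 4-fold below every one, counting only genes that reached a signal of 200. No fitted array had a gene that far above all the others. Its correlation with the fitted arrays was 0.824 to 0.832. HOXB13 read 2087 on it and 2.14 to 11.3 on the others, EPCAM 1096 and 5.33 to 26.2, PMEL 2.90 and 3694 to 9203, and CTNNA1 1.57 and 2559 to 5040.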

How the results depend on the processing

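The count of genes changed with both drugs against control, 5539, ranged from 4009 to 5494 when 1 array was left out. It was 1856 with control replicate 2 included, 1982 with a change of at least 2-fold required and 3592 at an adjusted p under 0.01. Against Wee1 inhibitor II alone it was 2791, with 389 when control replicate 2 was included, 1836 when each probe set entered the test and 1664 when a gene's probe sets were averaged. Leaving out 1 array gave 1996 to 2819. Against 17-AAG alone the count was 3816, with 542 when control replicate 2 was included and 2370 with the mean of probe sets. Leaving out 1 array gave 2739 to 3590. Centring the arrays turned 56.3% of calls upward into 25.1% in this comparison. Replicate numbers did not pair the samples (r of -0.14 to 0.10 over 15 pairs, none over 0.1), and with the replicate number as a block (replicate block) the counts were 4927, 2194 and 3092. Of 179 named genes that were called, 66 kept the call under all 22 settings. Most losses came with control replicate 2 included, where 82 lost the call and 14 changed sign, beside 34 and 3 with the mean of probe sets. With the mean of probe sets the sign turned for SREBF1 (-0.17), HEXA (-0.025) and MCL1 (-0.13). With control replicate 2 included it turned for ELOVL6 (0.12), NQO1 (0.58), SGK1 (0.81), ADM (0.13), AJUBA (-0.21), ID4 (0.57), ITGB3 (1.05), TWIST1 (-0.022), COL6A1 (-0.62), HMOX1 (0.19), RAB27A (0.48), LUM (0.79), MCL1 (-0.055) and CCND1 (-0.09), and that array's signals differ as given above; beyond this the cause was not tested. Control has 2 arrays, which limits the precision, and dim genes are called less often.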
